A study of Mus musculus with 2 samples.

Results

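Androgen-dependent secretory proteins of the prostate were followed through 8 genes: *Pbsn*, *Tgm4*, *Msmb*, *Sbp*, *Sbpl*, *Ren1*, *Pnliprp1* and *Apof*. They were chosen by name among the 19320 features of the deposited single-cell table, and all 8 were found in it. Their values were read in 12750 luminal and proximal cells among 15742 cells. A cell was taken as luminal when its deposited *Krt8* value was above 0 and its *Krt5* value was below 1. *Krt8* marks luminal epithelium and *Krt5* marks basal epithelium.

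The cells came from prostate tissue of *R26* mTmG/hAR:*Osr1* Cre/+ mice on a mixed C57BL/6 and 129S1/SvImJ background. In all of these mice, *Osr1*-Cre recombined both *Rosa26* alleles in cells of the *Osr1* lineage, so that a human androgen receptor transgene (*hARtg*) and a membrane green fluorescent protein (mGFP) were switched on together. The labels give 1 library from younger mice, of intraepithelial neoplasia of the prostate (PIN), and 1 from older mice, of adenocarcinoma (PCa), with no transgene-free library among the samples used here. The digestion medium contained dihydrotestosterone, an androgen, and neither the prostate lobes nor the number of mice per library is given in the labels.

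Columns of the table ended in 1 of 2 barcode suffixes, which the labels do not tie to PIN or PCa. They were kept as barcode set 1 (6332 cells) and barcode set 2 (9410 cells), and no cell was assigned to a tissue. Set 1 held 134850345 unique molecular identifiers (UMIs, each marking 1 captured RNA molecule) with a median of 17235 per cell, and set 2 held 187280119 with a median of 14824.5. The sets shared 67 barcodes. With 1 library per group and cells that are not replicates, no p-value was computed, and the 95% intervals given below cover counting error only. ARQ was read as the transcript of *hARtg*, and EGFP as that of mGFP, on the strength of the feature names alone.

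The luminal class held its defining markers, with *Krt18* at 5218 CPM (UMIs of a gene per 1000000 UMIs of the cells of a group) in set 1 and 7319 in set 2, against 115 and 247 in leukocytes. It was not pure, since 564 of 3840 cells in set 1 and 191 of 8910 in set 2 carried a UMI of the leukocyte gene *Ptprc*, and 494 and 1145 carried none of the epithelial gene *Epcam*.

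The prostate epithelium of the mouse secretes a small number of proteins in very large amounts, and androgens keep their genes active in differentiated luminal cells. Different lobes, and different cells of a lobe, make different products. Probasin, encoded by *Pbsn*, is a lipocalin of the dorsal and lateral lobes. Transglutaminase 4 (*Tgm4*) cross-links seminal vesicle proteins into the copulatory plug. *Msmb* encodes beta-microseminoprotein and *Sbp* encodes the spermine-binding protein of the ventral lobe, of which *Sbpl* is a close paralog. *Ren1* encodes renin, the protease that cleaves angiotensinogen, *Pnliprp1* a protein related to pancreatic lipase, and *Apof* apolipoprotein F.

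The promoters of *Pbsn*, *Tgm4*, *Ren1* and *Pnliprp1* are shown because these 4 genes were found together in the same luminal cells of set 2, as described below. Each is the 250 bases upstream of the annotated start from RefSeq (GRCm38.p6), written 5′ to 3′ on the strand of the gene. Capitals mark AGAACA or its reverse complement, 1 arm of the androgen response element, searched on both strands. *Pbsn* lies at chrX:77837898-77853500 on the minus strand and its window at chrX:77853501-77853750. *Tgm4* lies at chr9:123034741-123067558 with its window at chr9:123034491-123034740, *Ren1* at chr1:133350674-133360320 with chr1:133350424-133350673, and *Pnliprp1* at chr19:58728887-58744169 with chr19:58728637-58728886, all on the plus strand.
Pbsn: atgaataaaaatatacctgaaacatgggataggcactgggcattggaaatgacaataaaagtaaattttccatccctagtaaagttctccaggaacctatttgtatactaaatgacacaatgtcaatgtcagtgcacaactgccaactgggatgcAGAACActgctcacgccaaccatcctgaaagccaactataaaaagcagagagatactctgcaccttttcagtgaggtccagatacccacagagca
Tgm4: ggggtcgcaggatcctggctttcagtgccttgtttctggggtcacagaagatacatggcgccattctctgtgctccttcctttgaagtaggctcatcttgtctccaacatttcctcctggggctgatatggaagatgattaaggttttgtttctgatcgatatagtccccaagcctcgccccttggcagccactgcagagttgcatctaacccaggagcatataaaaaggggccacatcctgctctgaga
Ren1: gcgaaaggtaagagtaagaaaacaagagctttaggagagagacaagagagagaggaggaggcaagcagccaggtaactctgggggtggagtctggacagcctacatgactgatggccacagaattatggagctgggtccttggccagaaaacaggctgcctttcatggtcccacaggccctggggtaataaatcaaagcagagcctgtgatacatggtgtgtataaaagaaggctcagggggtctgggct
Pnliprp1: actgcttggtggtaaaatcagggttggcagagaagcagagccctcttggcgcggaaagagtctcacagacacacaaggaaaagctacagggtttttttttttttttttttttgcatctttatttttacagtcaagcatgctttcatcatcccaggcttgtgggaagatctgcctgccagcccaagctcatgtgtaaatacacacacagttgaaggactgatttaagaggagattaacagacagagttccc
The *Pbsn* window held 1 match, starting at position -95 from the annotated start, and the windows of *Tgm4*, *Ren1* and *Pnliprp1* held 0. *Sbp* (chr17:23922551-23945603) had 3 annotated starts, and 1 of their windows held 1 match at -64. *Sbpl* (chr17:23953085-23955273) held 0. The AGAACA string was present in 16.1% of 32851 promoters of the same length. The full string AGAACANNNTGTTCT was in 0 windows of the members and in 0.00913% of all promoters. *Msmb* (chr14:32142023-32158327) and *Apof* (chr10:128268699-128271250) were matched by position only.

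Secretory RNA was abundant in luminal cells of both barcode sets, but the sets were led by different genes. Since the assay tags each molecule once near its 3′ end, levels in CPM were not divided by gene length. In set 1, *Msmb* led at 8076 CPM (95% interval 8059 to 8094, 3840 cells), followed by *Pbsn* at 2859, *Sbp* at 1758 and *Tgm4* at 1684. The neighbours *Sbp* and *Tgm4* differed beyond their counting intervals (1750 to 1766 and 1676 to 1692), though by little. *Apof* stood at 341 CPM, *Pnliprp1* at 111, *Sbpl* at 65.1 and *Ren1* at 1.97.

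In set 2, *Sbp* led at 2429 CPM (2422 to 2436, 8910 cells), followed by *Tgm4* at 807, *Pbsn* at 336 and *Ren1* at 166. *Sbpl* stood at 93.7 CPM, *Apof* at 84.4, *Msmb* at 70.0 and *Pnliprp1* at 40.9. Thus *Msmb* led in set 1 and stood next to last in set 2, whereas *Ren1* was last in set 1 and followed *Pbsn* in set 2. The sets were not compared by a test, because each is 1 library that the labels do not tie to a tissue.

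Free RNA was judged in cells that carried a *Ptprc* and no *Epcam* UMI (706 cells of median 3803 UMIs in set 1 and 168 of median 7481.5 in set 2). In set 1 these cells held 173 CPM of *Msmb* (160 to 187), 70.7 of *Pbsn*, 50.6 of *Sbp* and 36.3 of *Tgm4*. In set 2 they held 88.7 CPM of *Sbp* (73.5 to 106), 41.7 of *Tgm4*, 11.9 of *Pbsn* and 11.2 of *Msmb*. The level in luminal cells was above the leukocyte level for every member in both sets. In CPM the gap was narrowest for *Msmb* in set 2, with 70.0 against 11.2 CPM (6.26 to 18.4), and for *Ren1* in set 1, with 1.97 against 0.265 (0.00671 to 1.48). Luminal cells were deeper, with medians of 24538 and 15414 UMIs, and a given number of free UMIs makes a higher CPM in a shallow cell. In UMIs per cell, the luminal level was 16.1-fold the leukocyte level for *Msmb* in set 2 and 36.8-fold for *Ren1* in set 1. The other members of set 1 were at 172-fold (*Sbp*) to 255-fold (*Apof*). The leukocyte cells may not have been free of epithelium, since 342 of 706 in set 1 and 129 of 168 in set 2 carried a *Krt8* UMI. Whether these *Krt8* UMIs were free RNA themselves was not tested. The 2 groups also overlapped, as 339 leukocyte cells of set 1 and 127 of set 2 were counted in the luminal class too.

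The make-up of the secretory RNA in leukocytes was like that of the luminal cells of the same set. In set 1, *Msmb* took 54.2% of the UMIs of the 8 genes in luminal cells and 50.7% in leukocytes, and *Pbsn* took 19.2% and 20.7%. In set 2, *Sbp* took 60.3% and 54.8%, and *Pbsn* took 8.34% and 7.37%. *Msmb* took 1.74% in luminal cells of set 2 and 6.91% in leukocytes, which rests on 15 UMIs. Each set thus had its own mixture, dominated by *Msmb* in one and by *Sbp* in the other.

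**Figure D1:**
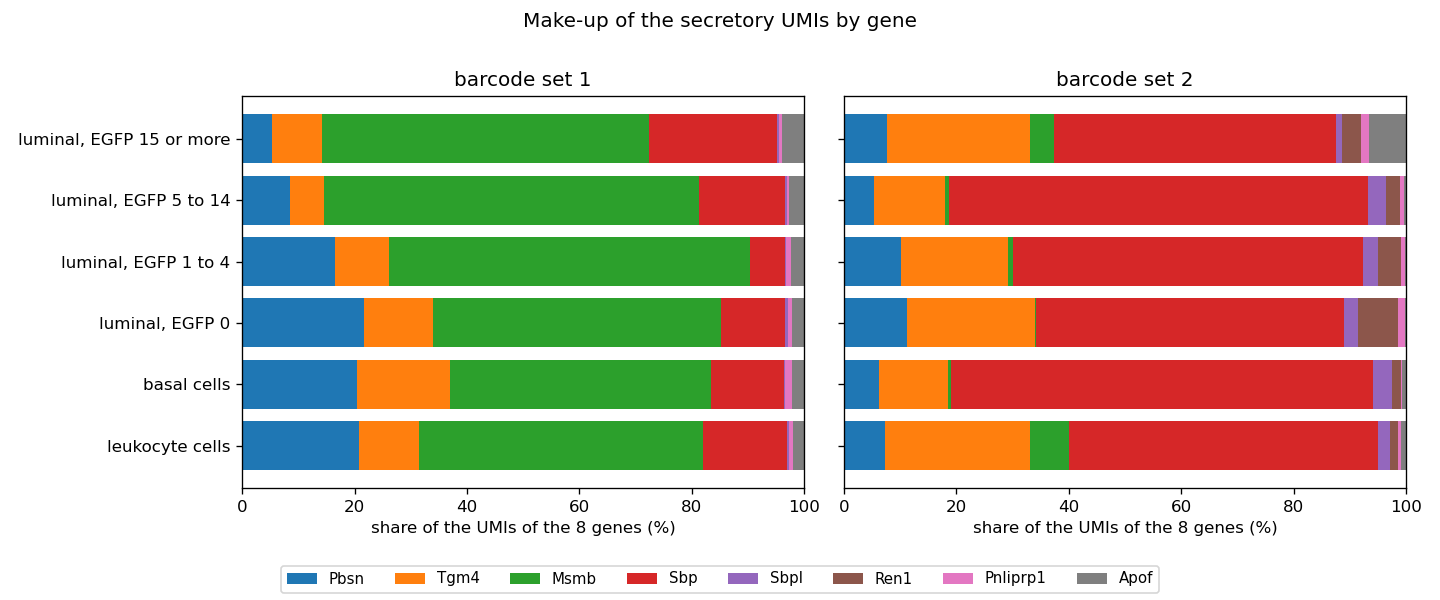
Share of the summed UMIs of the 8 genes taken by each gene (%, stacked bars) in leukocyte cells, basal cells and luminal cells of 4 EGFP levels, for barcode set 1 (left) and barcode set 2 (right). *Msmb* takes the largest share in every group of set 1 (46.6% to 66.7%) and *Sbp* in every group of set 2 (50.1% to 75.1%).

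To compare cells of unequal depth, each cell was thinned to 3000 UMIs, which left out 155 luminal cells of set 1 and 189 of set 2. A cell was counted as above free RNA for a gene when its thinned UMIs exceeded the 99th percentile of the leukocyte cells of the same set. That limit rested on 536 leukocyte cells in set 1 and on 155 in set 2. In set 1 it was 4 UMIs for *Msmb*, 2 for *Pbsn* and *Tgm4*, 1 for *Sbp* and *Apof*, and 0 for the others. In set 2 it was 2 for *Sbp*, 1 for *Pbsn* and *Tgm4*, and 0 for the others. At a limit of 0 any thinned UMI counted, so the shares are not on 1 scale across genes or sets. In set 1, 22.6% of luminal cells were above free RNA for *Pbsn* (21.3% to 24.0%, 3685 cells), 22.5% for *Tgm4*, 21.2% for *Msmb*, 14.8% for *Apof* and 10.3% for *Pnliprp1*. Only 4.04% were above it for *Sbp*, 1.55% for *Sbpl* and 0.380% for *Ren1*. In set 2, *Apof* was above free RNA in 1304 of 8721 luminal cells, *Tgm4* in 12.1%, *Sbp* in 8.38%, *Ren1* in 5.22%, *Pbsn* in 4.95% and *Msmb* in 1.83%. Detection of a UMI alone was less distinct in set 1, as *Msmb* was seen in 44.8% of thinned luminal cells and 38.4% of leukocytes, *Sbp* in 11.3% and 15.9%, *Pbsn* in 35.7% and 18.1%, and *Tgm4* in 33.7% and 10.3%.

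A small number of cells carried most of the spermine-binding protein RNA. In set 1, *Sbp* stood at 32626 CPM in the 149 cells above free RNA, against 1758 CPM over all luminal cells. *Msmb* stood at 27512 CPM in 781 cells and *Pbsn* at 10376 CPM in 834 cells. *Apof* reached 1288 CPM in its 546 cells and *Pnliprp1* 773 in its 378 cells. The order by level within producing cells therefore differed from the order over all cells, where *Msmb* led.

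The first comparison asks how secretory genes vary with the lineage reporter. In set 2, *Pbsn*, *Tgm4*, *Sbp*, *Sbpl*, *Ren1* and *Pnliprp1* were 11.4-fold to 30.8-fold lower in luminal cells with high EGFP than in those with 0 EGFP UMIs after thinning. *Msmb* and *Apof* were higher. In set 1 the differences were smaller, with *Pbsn*, *Ren1* and *Pnliprp1* at least 2-fold lower and *Msmb*, *Sbp* and *Apof* slightly higher. EGFP-high cells held 5 or more EGFP UMIs per 3000 (489 cells in set 1, 7853 in set 2) and EGFP-0 cells held 0 (2834 and 361). ARQ was 714 and 35.9 CPM in set 1, and 1532 and 216 in set 2, so the transgene followed the reporter in both. EGFP-0 cells were not free of EGFP before thinning, with 23.6 CPM in set 1 and 138 in set 2.

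**Figure D2:**
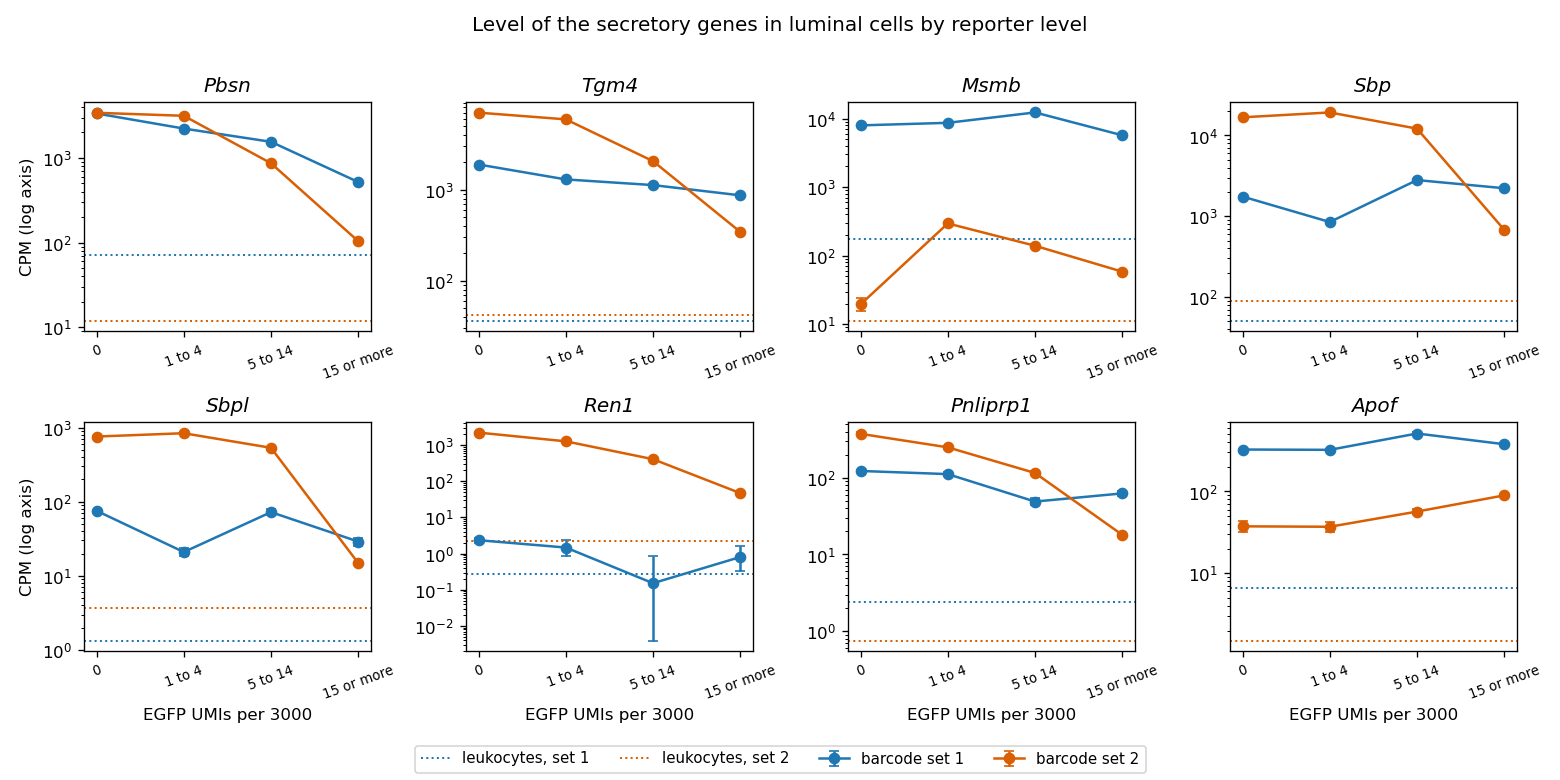
Level of each gene (CPM, log axis) in luminal cells with 0, 1 to 4, 5 to 14 and 15 or more EGFP UMIs per 3000, for barcode set 1 (blue) and set 2 (orange). Bars are exact Poisson 95% intervals and dotted lines the level in leukocyte cells. *Pbsn* goes from 3412 to 104 CPM in set 2 and from 3350 to 520 in set 1, whereas *Apof* of set 2 goes from 37.5 to 89.6.

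*Pbsn* was lower with each step of EGFP in both sets. In set 1 it stood at 3350 CPM in cells with 0 EGFP, 2223 with 1 to 4, 1550 with 5 to 14 and 520 with 15 or more. In set 2 the levels were 3412, 3144, 865 and 104 CPM. The log2 ratio of EGFP-high over EGFP-0 cells was -1.80 (-1.82 to -1.77) in set 1. It was -4.45 (-4.47 to -4.42) in set 2. In cells with *Epcam* and without *Ptprc* UMIs, EGFP-0 cells held 3509 CPM of *Pbsn* in set 1 and 5303 in set 2.

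*Tgm4*, the copulatory plug cross-linker, was ordered the same way. Its levels from the lowest to the highest EGFP were 1890, 1296, 1123 and 867 CPM in set 1. In set 2 they were 7006, 5916, 2058 and 345 CPM. The log2 ratio was -0.95 (-0.98 to -0.93) in set 1, just short of 2-fold, and -3.92 (-3.94 to -3.90) in set 2.

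*Ren1* could be followed only in set 2. There its levels were 2207, 1267, 406 and 46.9 CPM, and its log2 ratio of -4.94 (-4.98 to -4.91) was the lowest of the 8. In set 1 the whole luminal class held 200 *Ren1* UMIs, 176 in EGFP-0 and 8 in EGFP-high cells, with a log2 ratio of -2.16 (-3.40 to -1.15). Strain 129 mice carry a further renin gene that the C57BL/6 reference lacks, and UMIs of it could have been counted as *Ren1*.

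*Pnliprp1* stood at 123, 111, 48.9 and 62.5 CPM across the EGFP levels of set 1. In set 2 it stood at 373, 249, 115 and 18.0 CPM. The log2 ratios were -1.11 (-1.22 to -1.01) and -3.92 (-3.99 to -3.84). In set 1 the lowest level was that of the cells with 5 to 14 EGFP UMIs, so the order was not stepwise there.

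*Sbp* had opposite signs in the sets. In set 1 its levels were 1752, 848, 2806 and 2223 CPM, with a log2 ratio of 0.50 (0.48 to 0.51). In set 2 they were 16798, 19296, 12163 and 680 CPM, with a log2 ratio of -3.51 (-3.52 to -3.50). The low value of set 2 was confined to the cells with 15 or more EGFP UMIs among the 4 levels. *Sbpl* stood at 75.4, 20.9, 72.3 and 29.0 CPM in set 1 and at 756, 838, 533 and 14.9 in set 2, with log2 ratios of -0.66 (-0.78 to -0.55) and -3.90 (-3.96 to -3.84). The transcripts of the pair are 93.6% identical, with a run of 159 identical bases in the last 300, so reads of one could have been counted for the other or dropped. For every 100 *Sbp* UMIs there were 4.30 *Sbpl* UMIs in EGFP-0 and 1.30 in the highest EGFP cells of set 1, and 4.50 and 2.19 in set 2.

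*Msmb* and *Apof* had ratios above 0 in both sets. *Msmb* stood at 7942, 8656, 12268 and 5700 CPM across the levels of set 1, with a log2 ratio of 0.10 (0.09 to 0.11) that was -0.075 without possible doublets. The cells with 15 or more EGFP UMIs were below those with 0. In set 2 it stood at 19.5, 295, 139 and 58.4 CPM, with a log2 ratio of 1.72 (1.43 to 2.02). That ratio compares 11005 UMIs with 95. *Apof* stood at 326, 323, 511 and 378 CPM in set 1 and at 37.5, 37.1, 56.8 and 89.6 in set 2, with log2 ratios of 0.42 (0.38 to 0.46) and 1.22 (1.01 to 1.44).

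Of the 8 genes, 3 were at least 2-fold lower in EGFP-high cells of set 1 and 0 were at least 2-fold higher, beside 4.34% and 2.86% of the 9064 genes with a mean of at least 5 CPM. *Ren1* was under that mean in set 1, so 7 members passed it. In set 2, 6 were lower and 2 higher, beside 23.5% and 8.77% of 9705 genes. The median log2 ratio of the members was -0.81 in set 1 and -3.91 in set 2, against -0.17 and -0.23 over all genes. Genes other than the members were thus often lower in set 2 as well.

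**Figure D3:**
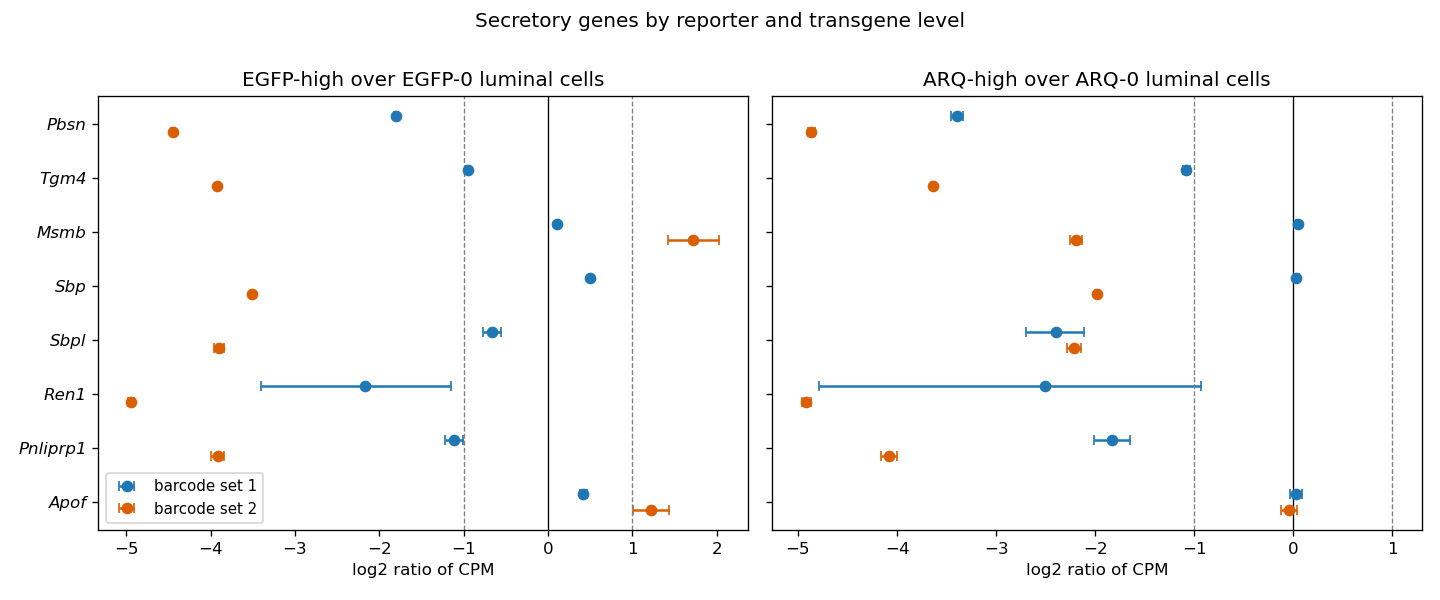
Log2 ratio of CPM (horizontal axis) of EGFP-high over EGFP-0 luminal cells (left) and ARQ-high over ARQ-0 luminal cells (right) for each gene, in barcode set 1 (blue) and set 2 (orange). Bars are exact conditional binomial 95% intervals and dashed lines mark 2-fold. *Msmb* of set 2 lies at 1.72 for EGFP and at -2.20 for ARQ.

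The sides of this comparison also differed in other cells' markers. In set 2, EGFP-0 luminal cells held 461 CPM of the 3 endothelial markers against 8.93 in EGFP-high cells, with every marker of the list seen on both sides. They also held 1123 against 245 CPM of the 4 fibroblast markers, 2395 against 759 of the 6 leukocyte markers, 177 against 3.23 of the 3 smooth muscle markers and 410 against 39.4 of the 4 basal markers. The 4 seminal vesicle markers ran the other way, at 42.2 against 1852 CPM, as did the 5 luminal markers, at 8489 against 18337. In set 1, the 5 proximal markers stood at 5876 CPM in EGFP-0 and 12710 in EGFP-high cells, the 5 luminal markers at 23175 and 12825, and the 4 basal markers at 481 and 1277. The part of these cells in the values of the members was not tested, but the ratios were taken again in cells with an *Epcam* UMI and no *Ptprc* UMI, a choice made after the data were seen. This left 167 EGFP-0 and 7225 EGFP-high cells in set 2, where endothelial markers were at 213 and 8.75 CPM and basal markers at 632 and 40.7.

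In these cells the log2 ratios of set 2 lay further from 0 for the 6 lower genes, from -4.13 for *Sbp* to -5.52 for *Ren1*. *Msmb* was at 1.48 and *Apof* at 0.57, which is under 2-fold, as it was at 0.61 without possible doublets. In set 1, 5 of the 8 were at least 2-fold lower, with *Tgm4* at -1.06 and *Sbpl* at -1.49 now past it, and *Sbp* was at 0.13. Depth was a further difference, with a median of 16688 UMIs in EGFP-high and 9833 in EGFP-0 cells of set 2. Split at the median depth of each side, *Pbsn* of set 2 was 52.1 CPM in EGFP-high against 289 in EGFP-0 cells among the shallower cells and 189 against 4309 among the deeper cells, and *Sbp* was 789 against 2035 and 1686 against 21039.

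Whether fewer cells made a product, or each made less, differed by gene. For *Pbsn* both were lower with EGFP. The share of cells above free RNA went from 25.2% (23.6% to 26.8%) in EGFP-0 cells of set 1 to 7.12% (4.52% to 10.6%) in those with 15 or more EGFP UMIs, and the level in these cells from 10783 to 4823 CPM. In set 2 the share went from 24.1% (19.8% to 28.9%) to 2.59% (2.23% to 2.98%) and the level from 8203 to 2712 CPM. *Ren1* of set 2 was similar, with 19.9% and 3.27% of cells at 6161 and 1160 CPM. The EGFP-0 shares of set 2 were higher in the 167 cells with *Epcam* and without *Ptprc* UMIs, at 52.1% for *Pbsn*, 53.9% for *Tgm4* and 42.5% for *Ren1*, against 29.7% for *Pbsn* and 29.3% for *Tgm4* in set 1. *Tgm4* went from 24.7% to 10.7% in set 1 with 6806 and 5698 CPM in the cells above, and from 25.2% to 10.2% in set 2 with 16251 and 2172 CPM.

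For *Sbp* of set 2, the shares at the lowest and highest EGFP level were near each other and the levels were far apart. It was above free RNA in 7.20% of EGFP-0 cells (4.76% to 10.4%, 26 cells) and in 8.10% of the highest EGFP cells (7.49% to 8.76%, 589 cells). *Sbp* stood at 175711 CPM in the 26 cells and at 6035 CPM in the 589 cells. The counting interval of the summed level does not cover how few these 26 cells are. In cells with *Epcam* and without *Ptprc* UMIs the shares were 13.8% (8.94% to 19.9%, 23 of 167 cells) in EGFP-0 and 8.25% (7.62% to 8.91%) in EGFP-high cells. These intervals cover counting error only, in cells that are not replicates, so they do not decide whether the shares differ. In set 1 the share was higher with EGFP, at 2.33% (1.81% to 2.95%) against 12.3% (8.85% to 16.5%), while the level in those cells was lower, at 52009 against 14139 CPM. *Sbp* of set 1 thus came from few cells at a high level in the EGFP-0 group. At the highest EGFP level it came from a larger share of cells at a lower level.

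*Msmb* and *Apof* of set 1 had the same form. *Msmb* was above free RNA in 18.2% (16.8% to 19.7%) of EGFP-0 cells, 24.6% with 1 to 4, 50.6% (43.0% to 58.1%) with 5 to 14 and 27.5% (22.6% to 32.8%) with 15 or more. Its level in those cells was 31430, 25354, 21438 and 14653 CPM. *Apof* was above free RNA in 12.9%, 14.1%, 32.8% and 23.0% of cells, at 1421, 1187, 1059 and 878 CPM. Cells with 5 to 14 EGFP UMIs held the largest share of producers for both genes in set 1, though for *Apof* the intervals of the 2 upper levels overlapped (26.0% to 40.2% and 18.4% to 28.1%). In set 2, *Apof* went from 5.26% (19 of 361 cells) to 16.6% (15.8% to 17.5%), but with *Epcam* and without *Ptprc* UMIs it was in 10.8% (6.51% to 16.5%) of EGFP-0 and 16.1% (15.2% to 17.0%) of EGFP-high cells, with overlapping intervals. *Msmb* of set 2 stayed between 1.68% and 3.08%, with overlapping intervals of the end levels. Its limit there was 0 UMIs, which 3.88% of fibroblast-gate cells (5 of 129) and 4.14% of basal-gate cells (11 of 266) also exceeded. These shares of *Msmb* in set 2 therefore do not set luminal cells apart from other cells.

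**Figure D4:**
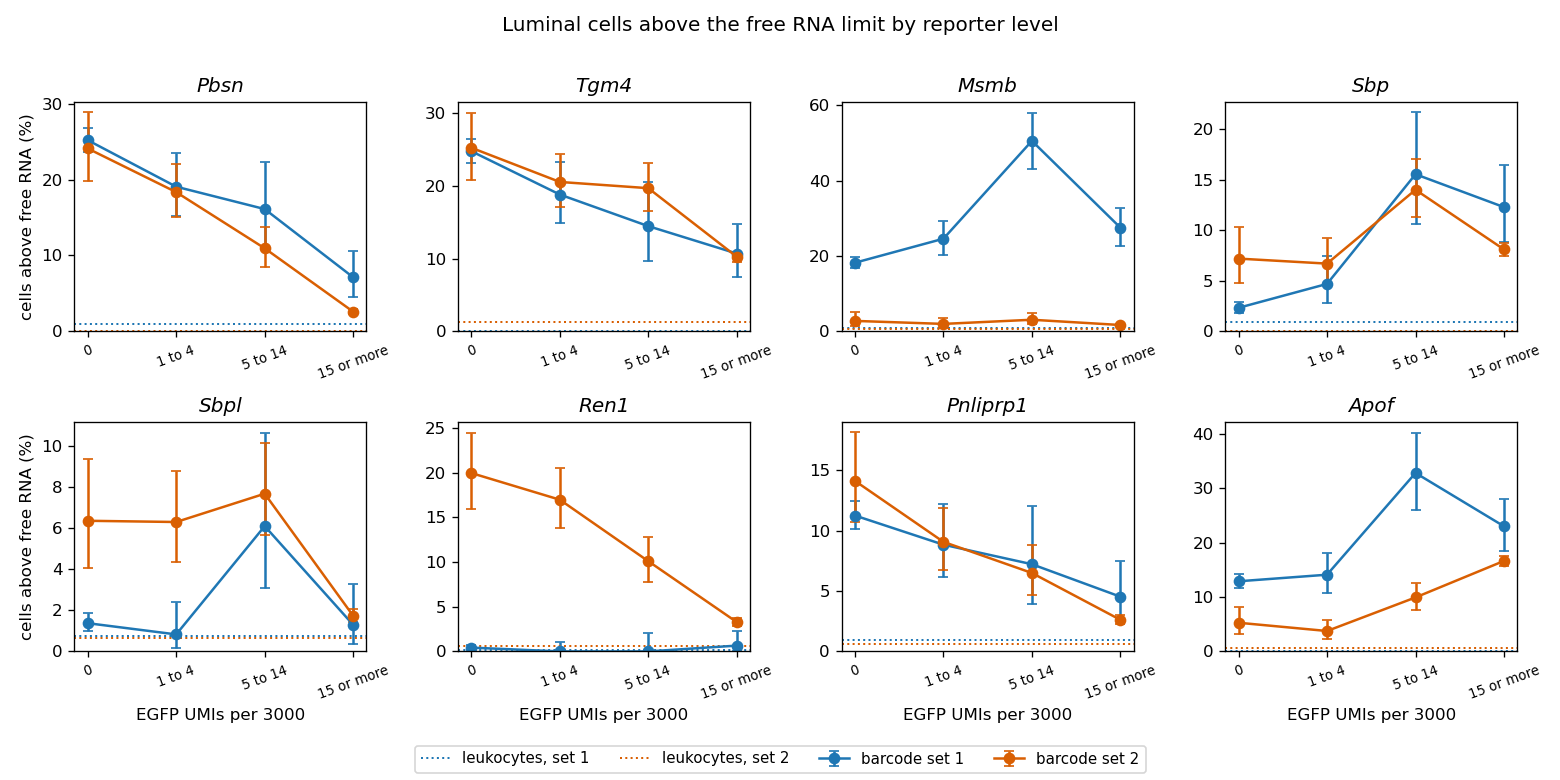
Share of luminal cells above the free RNA limit (%, linear axes from 0) for each gene by EGFP UMIs per 3000, in barcode set 1 (blue) and set 2 (orange). Bars are exact Clopper-Pearson 95% intervals and dotted lines the share in leukocyte cells, which is low by definition because the limit was set on them. At the lowest and highest EGFP level *Pbsn* lies at 25.2% and 7.12% (set 1) or 24.1% and 2.59% (set 2), and *Msmb* of set 1 peaks at 50.6% with 5 to 14 EGFP UMIs.

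Several products in 1 cell were also less common at the highest EGFP level. In set 2, 21.9% (17.7% to 26.5%) of EGFP-0 cells and 2.88% (2.50% to 3.29%) of cells with 15 or more EGFP UMIs were above free RNA for 3 or more of the 8 genes. In set 1 the shares were 18.5% (17.0% to 19.9%) and 10.0% (6.92% to 13.9%), with 21.7% (15.9% to 28.4%) in cells with 5 to 14. With *Epcam* and without *Ptprc* UMIs, the share in EGFP-0 cells of set 2 was 47.3% (39.5% to 55.2%). The 8 genes together took 3.06% of all UMIs in EGFP-0 cells of set 2 and 0.136% in those with the most EGFP, against 1.55% and 0.978% in set 1. No leukocyte cell reached 3 genes, 0 of 536 in set 1 and 0 of 155 in set 2. The limits were set on these same leukocyte cells, which keeps their share low by definition, so it is not an independent contrast.

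The second comparison asks the same of the transgene itself, read as ARQ. ARQ-high cells held 3 or more ARQ UMIs per 3000 (244 cells in set 1, 5676 in set 2) and ARQ-0 cells held 0 (3019 and 1171). Of the 8 genes, 5 were at least 2-fold lower in ARQ-high cells of set 1, beside 4.74% of 9036 genes, and 7 were in set 2, beside 14.8% of 9352 genes. None was at least 2-fold higher, beside 3.24% and 2.03%. *Ren1*, 1 of the 5 lower in set 1, had a mean of 1.38 CPM there, under the 5 CPM of the background, which 7 members reached. The median log2 ratio of the members was -1.45 and -2.93, against -0.15 and -0.13 over all genes. ARQ yielded fewer UMIs than EGFP, and ARQ-0 cells were not free of the reporter, with 304 CPM of EGFP in set 1 and 4538 in set 2.

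*Pbsn* was at 312 CPM in ARQ-high against 3277 in ARQ-0 cells of set 1, and at 77.4 against 2256 in set 2. Its log2 ratios were -3.39 (-3.45 to -3.33) and -4.86 (-4.90 to -4.83), so that in set 1 *Pbsn* differed more by ARQ than by EGFP. *Tgm4* was at 883 against 1865 CPM in set 1 and 345 against 4294 in set 2, with ratios of -1.08 and -3.64. *Ren1* of set 2 was at 38.0 against 1149 CPM, with a ratio of -4.92 (-4.96 to -4.87), and set 1 held 3 UMIs on the high side. *Pnliprp1* had ratios of -1.83 and -4.08.

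*Sbpl* was lower in both sets, at 13.7 against 71.9 CPM and 37.0 against 172. *Sbp* was at 1717 against 1681 CPM in set 1, a log2 ratio of 0.03 (0.00 to 0.06), and at 1099 against 4354 in set 2, a ratio of -1.99. *Msmb* was at 8105 against 7865 CPM in set 1, a ratio of 0.04 (0.03 to 0.06), and at 43.6 against 200 in set 2, a ratio of -2.20 (-2.26 to -2.14). When cells were split on their UMIs before thinning, *Sbp* and *Sbpl* of set 2 were at -0.13 and -0.28, and *Pbsn* and *Sbpl* of set 1 at -1.57 and -0.80. *Tgm4* of set 1 was at -0.64 with thinning to 6000 UMIs, so the calls of *Sbp* and *Sbpl* in set 2 and of *Sbpl* and *Tgm4* in set 1 rested on the split or the thinning. *Msmb* of set 2 was therefore higher with EGFP and lower with ARQ. Its EGFP-0 side held 95 UMIs, whereas the 507 cells with 1 to 4 EGFP UMIs, which belong to neither side of the EGFP comparison, held 1664. Few cells carried them. After thinning, *Msmb* was seen in 10 of these 507 cells and in 29 of the 1171 ARQ-0 cells, with a maximum of 237 UMIs. The counting intervals of *Msmb* in set 2 do not cover how few these cells are. *Apof* had ratios of 0.03 (-0.04 to 0.09) and -0.04 (-0.12 to 0.04), and of 0.58 and 0.845 with the split on UMIs before thinning.

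In the cells with the most transgene, with 6 or more ARQ UMIs, *Pbsn* stood at 148 CPM (127 to 171, 51 cells) in set 1 and at 40.8 (39.2 to 42.5, 2688 cells) in set 2. The leukocyte level was 70.7 (62.5 to 79.7) and 11.9 (6.82 to 19.4) CPM. *Tgm4* in the same cells was at 1715 CPM (1643 to 1790) in set 1, against 1865 (1856 to 1875) in ARQ-0 cells. This level rests on few cells, as 9 of the 51 were above free RNA for *Tgm4* (17.6%, 8.40% to 30.9%). Over all 244 ARQ-high cells of set 1, *Tgm4* was at 883 CPM. *Ren1* had 0 UMIs in the 51 cells of set 1. Of the 51 cells of set 1, 13.7% held a *Pbsn* UMI after thinning, against 18.1% of leukocytes, and 1 was above the free RNA limit, so the summed level is not one of these cells in general. The 2 shares are not on 1 scale, since leukocytes had a median of 3803 UMIs before thinning and ARQ-high cells of set 1 had 26706. Thinning thus removed less of what leukocytes held, and whether the 51 cells were at the free RNA level was not tested.

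The third comparison sets luminal cells with proximal markers beside those without. Proximal luminal cells line the ducts near the urethra and are known to secrete little. Cells with 3 or more of the 5 proximal markers, among them *Krt4* and *Psca*, were set against cells with 0 or 1, which cuts a range and not a type. In set 1 (1550 against 1069 cells) all 8 genes were at least 2-fold lower with the markers, beside 11.4% of 9377 genes with a mean of at least 5 CPM, which 7 members reached. In set 2 (365 against 6944 cells) 4 were lower, beside 3.65% of 8885 genes. The remaining cells, 1066 in set 1 and 1412 in set 2, held 2 of the markers.

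In set 1, *Msmb* stood at 3080 CPM in marker-rich and 22872 in marker-poor cells, with 5564 between them. *Pbsn* stood at 758, 1940 and 8869 CPM in the same order, and *Tgm4* at 601, 1921 and 3774. The log2 ratios of the 8 genes ran from -2.36 (-2.40 to -2.32) for *Apof* to -3.62 (-3.75 to -3.50) for *Sbpl*. *Ren1* was ordered otherwise, at 0.371, 3.88 and 2.84 CPM. The 8 genes took 0.520% of the UMIs of marker-rich and 4.07% of those of marker-poor cells. The marker-poor cells were shallower, with a median of 17195 UMIs against 27758.5.

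In set 2, *Pbsn* was at 34.0 against 407 CPM, *Ren1* at 18.6 against 197, *Tgm4* at 206 against 927 and *Pnliprp1* at 10.3 against 47.6, with log2 ratios from -2.17 to -3.58. *Pnliprp1* was at -0.40 with thinning to 6000 UMIs, which ended its call. *Sbp* was at 2661 against 2681 CPM, *Sbpl* at 109 against 101, *Apof* at 87.0 against 81.0 and *Msmb* at 62.7 against 55.9. Their log2 ratios lay between -0.01 and 0.16. *Msmb* was at 2.31 with thinning to 6000 UMIs, which makes it a call, and the other three stayed under 2-fold in the alternatives run.

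Within single luminal cells, some pairs of members went together and others did not. Pearson r was computed on the deposited log values of cells with at least 3000 UMIs, which share a library, depth and free RNA, so it is given as a description with no test. In set 1 (3685 cells), *Msmb* and *Apof* had r = 0.73, *Sbp* and *Sbpl* 0.68, *Pbsn* and *Pnliprp1* 0.61, *Pbsn* and *Apof* 0.58, *Pbsn* and *Msmb* 0.50, and *Pbsn* and *Tgm4* 0.49. *Tgm4* and *Msmb* had -0.08. *Pbsn* thus went with both *Tgm4* and *Msmb*, whereas *Tgm4* and *Msmb* had an r near 0.

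Counted above free RNA, 483 cells of set 1 were positive for both *Pbsn* and *Tgm4*, 57.9% of *Pbsn* cells and 58.3% of *Tgm4* cells. Likewise 405 were positive for *Pbsn* and *Msmb*, 48.6% and 51.9% of each. For *Tgm4* and *Msmb* the count was 147, 17.8% and 18.8% of each. This was near, and slightly under, the 21.2% of all cells positive for *Msmb* and 22.5% for *Tgm4*. Of the *Apof* cells 74.9% were positive for *Msmb*, and of the *Pnliprp1* cells 80.2% were positive for *Pbsn*. For *Tgm4* and *Sbp* the count was 8, which was 0.966% of *Tgm4* cells, beside 4.04% of all cells positive for *Sbp*. It was 5.37% of *Sbp* cells, beside the 22.5% of all cells positive for *Tgm4*.

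In set 2 (8721 cells), *Ren1* was in the *Pbsn* group. *Pbsn* and *Ren1* had r = 0.74, *Tgm4* and *Ren1* 0.65, *Ren1* and *Pnliprp1* 0.63, *Pbsn* and *Tgm4* 0.62 and *Pbsn* and *Pnliprp1* 0.62. *Sbp* and *Sbpl* had 0.57, and *Msmb* and *Apof* 0.14. Of the *Pbsn* cells 71.3% were positive for *Tgm4* and 56.9% for *Ren1*, against 12.1% and 5.22% of all cells. The 4 genes of this group were the 4 that were lower with proximal markers in set 2. In set 1 only 14 cells were above free RNA for *Ren1*, so its r there says little. Of these, 11 were positive for *Tgm4* and 7 for *Pbsn*, beside 22.5% and 22.6% of all cells of set 1.

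**Figure D5:**
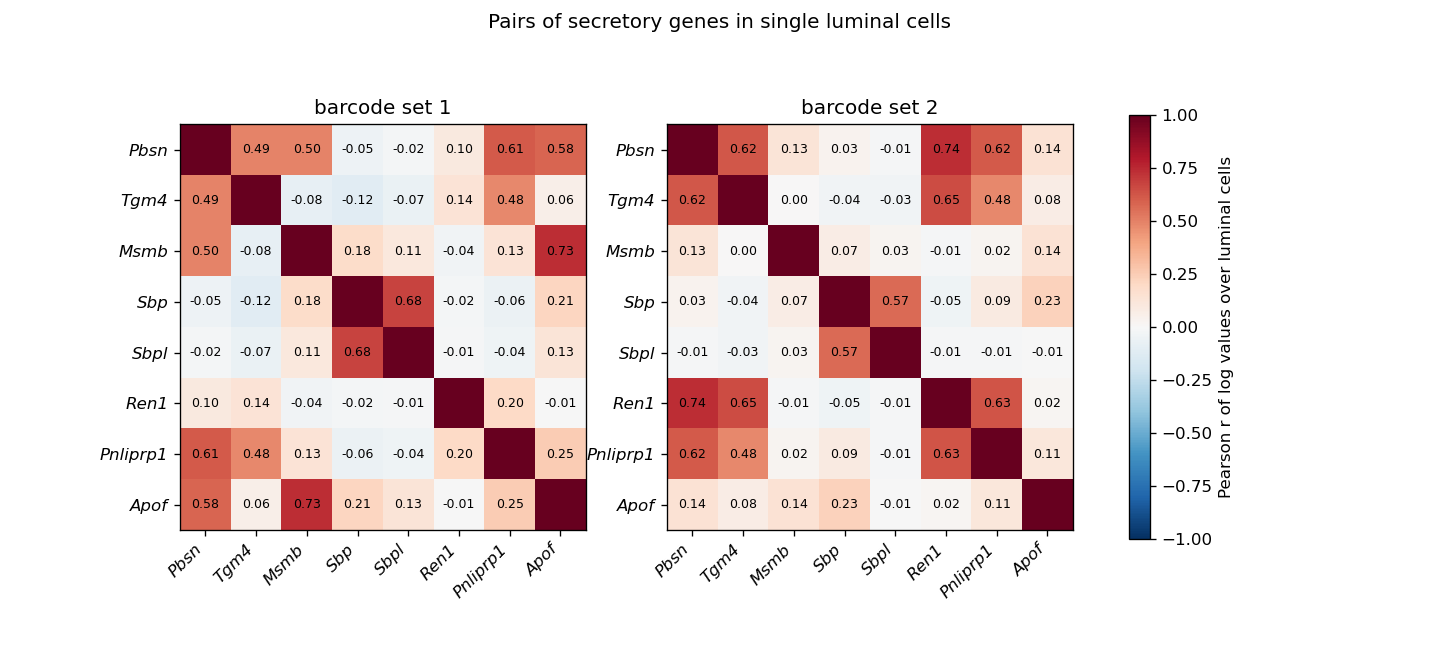
Pearson r of the deposited log values over luminal cells for each pair of the 8 genes in barcode set 1 (left) and set 2 (right), coloured from -1 (blue) to 1 (red). *Pbsn*, *Tgm4* and *Pnliprp1* are joined in both sets (0.48 to 0.62), *Ren1* joins them in set 2, and *Msmb* with *Apof* reaches 0.73 in set 1 and 0.14 in set 2.

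The genes most similar in pattern were sought over the 3840 luminal cells of set 1, for the 5 members above free RNA in at least 10% of cells and among 9154 genes. For *Tgm4* these were 9530053A07Rik (r = 0.88), Gm5615 (0.84) and *C1rb* (0.83), which encodes a complement protease. For *Pbsn* they were *Prdx6* (0.75), a peroxiredoxin, *Atp6v1c2* (0.72), a proton pump subunit, and *Derl3* (0.65), which acts in the removal of misfolded proteins from the endoplasmic reticulum. For *Apof* they were *Azgp1* (0.78), which encodes a secreted zinc-binding glycoprotein, *H2-Q10* (0.74) and *Msmb* (0.73), and for *Msmb* they were *Apof* (0.73), *H2-Q10* (0.71) and *Wfdc3* (0.71). For *Pnliprp1* they were *Pbsn* (0.61), *C1rb* (0.50) and 9530053A07Rik (0.50). *Ren1* and *Sbpl* were read in the 8910 luminal cells of set 2, a choice made after their values were seen, and were nearest to Gm37223 (0.83), *Fgl1* (0.82) and 9530003J23Rik (0.80), and to *Spink1* (0.77), *Oit1* (0.72) and *Wfdc3* (0.72).

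Other secretory genes did not share 1 direction with the reporter. Of 16 such genes, 11 had a mean of at least 5 CPM in set 1, and of these 2 were at least 2-fold lower and 4 higher in EGFP-high cells, beside 4.34% and 2.86% of all genes. In set 2, 13 had that mean, with 5 lower and 5 higher, beside 23.5% and 8.77%. The 5 higher were *Defb50*, *Pate4*, *Svs2*, *Svs5* and *Ceacam10*, the last 3 named after their values were seen. Of these, *Pate4*, *Svs2* and *Svs5* are also on the seminal vesicle marker list. The median log2 ratios of the listed genes with that mean were -0.04 and -0.43, against -0.17 and -0.23 over all genes. Among the most abundant, the defensin *Defb50* was higher in both sets (1.06 and 1.03), the chaperone *Clu* was at -1.58 and -0.02, and the protease inhibitor *Cst3* at -0.04 and -1.74. *Spink1*, a trypsin inhibitor, was at 3.16 in set 1 and -4.47 in set 2. *Pate4*, a seminal vesicle product that is also on the seminal vesicle marker list, was higher in both, at 3.48 and 5.59, with a mean of 1.46 CPM in set 1. By ARQ, *Ltf*, lactoferrin, was lower in both, at -6.85 and -6.93, with 1 UMI in ARQ-high cells of set 1 (interval -12.2 to -4.37). By EGFP, *Ltf* had opposite signs, at -7.11 in set 1 (2 UMIs in EGFP-high cells) and 3.30 in set 2 (693 against 2 UMIs). Of the list by ARQ, 3 of 11 and 6 of 14 with the mean were lower, beside 4.74% and 14.8% of all genes. The numbers higher were 4 and 5, beside 3.24% and 2.03%, and the 5 of set 2 again included *Pate4*, *Svs2* and *Svs5*.

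Few genes of the secretory machinery were past 2-fold. Of 13 genes of the endoplasmic reticulum and secretory pathway, 0 were 2-fold lower or higher with EGFP in set 1 and 1 was lower in set 2, where 12 had the mean of 5 CPM, beside the same shares of all genes. That gene, named after its value was seen, was *Agr2*, a disulfide isomerase of secretory cells, at -0.31 and -4.30. The chaperone *Hspa5* was at 0.41 and -0.87, *Ssr4*, a subunit of the translocon, at 0.59 and -0.07, and *Tmed3*, a cargo receptor, at 0.98 and -0.42. By ARQ, 1 of 13 was higher in set 1 (*Tmed3*, 1.06) and 1 was lower in set 2 (*Agr2*, -4.52). The medians by EGFP were 0.21 and -0.32 over the genes with that mean.

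Abundant non-secretory luminal factors and androgen targets were read in the same cells. *Fkbp5*, a co-chaperone of steroid receptors, was higher in both sets, at 2.09 and 1.04. *Hoxb13*, a homeobox factor of the prostate, was at 0.40 and -2.31, *Mme*, a membrane peptidase, at 0.92 and -1.57, *Foxa1*, a forkhead factor of luminal cells, at 0.22 and -0.74, and *Acsl3*, an acyl-CoA synthetase, at -0.09 and -0.14. *Fkbp5* was at 2.07 and 0.59 by ARQ, so the gene that was higher with the reporter in both sets was past 2-fold with the transgene in set 1 alone.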

How the data were processed

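Dissociated prostate tissue was sequenced as single cells captured in droplets, with reads from the 3′ end of each RNA, in 1 PIN and 1 PCa library. The authors counted UMIs with Cell Ranger 3.1.0 on mm10 with the transgene sequences added, and removed empty droplets, multiplets and cells with a high mitochondrial share. The deposited values are on a natural log scale: the UMIs of each gene were divided by the total of its cell, multiplied by 10000, raised by 1 and logged, for 19320 features, of which 2 repeat a symbol, and 15742 cells. Whole UMIs were recovered from them (100% of values within 0.001 of a whole number), with no further doublet caller run. Cells held between 1722 and 89183 UMIs.

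For each group of cells the UMIs were added up and scaled to CPM. Levels carry exact Poisson, shares exact Clopper-Pearson and ratios exact conditional binomial 95% intervals, all of counting error only. UMIs were thinned to 3000 per cell with a fixed seed. A sum of 0 entered a ratio as 3 UMIs, and no ratio was taken where this turned its direction. A gene was called at a 2-fold ratio, and the background was the share of genes called among those with a mean of at least 5 CPM. EGFP was split at 5 or more against 0 UMIs per 3000, ARQ at 3 or more against 0. No test between tissues was made, because barcode suffixes are not tied to them by the labels and each group has 1 library. Free RNA limits came from leukocyte cells of the same barcode set.

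The members and the 3 gene lists (other prostate secretory genes, secretory machinery, and luminal factors with non-secretory androgen targets) were chosen with earlier results of these data known. From each list the text names the 3 genes of highest mean CPM in either set and any past 4-fold in both sets in 1 direction. For likeness it names the 3 genes of highest r, of at least 0.3, for each member above free RNA in at least 10% of luminal cells of set 1. Genes named outside these rules are said to be so. Counts over the last list and the values of some genes are not reported here. Promoters and positions are from RefSeq tables (GRCm38.p6), matched by symbol, with promoter entries for 6 of 8 members. Analyses used Python 3.11.15, numpy 2.4.6, scipy 1.17.1, pandas 2.3.3, matplotlib 3.10.9 and Biopython 1.88, and were tested on simulated data. Alternatives changed the gate, possible doublets, the split, the thinning depth, the scaling, the weight of cells, free RNA, proximal cells, the filter and the fold.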

Additional observations from a re-analysis of the deposited data

Results flagged for a closer look

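Several ratios had opposite directions in the barcode sets, with both counting intervals off 0. The difference between the sets was not tested, since each set is 1 library. *Sbp* in EGFP-high over EGFP-0 cells had a log2 ratio of 0.50 in set 1 and -3.51 in set 2. In ARQ-high over ARQ-0 cells, *Msmb* was at 0.04 and -2.20, and *Sbp* at 0.03 and -1.99. In cells with 3 or more over 0 or 1 proximal markers, *Msmb* was at -2.89 and 0.16, and *Sbpl* at -3.62 and 0.10. The values near 0 were under 2-fold in each case, and those of *Msmb* and *Sbp* by ARQ in set 1, and of *Msmb* and *Sbpl* by proximal markers in set 2, changed sign under at least 1 alternative.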

How the results depend on the processing

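Of 383 recomputed ratios of the members, 140 stayed within the counting interval of the reported value, 237 moved beyond it and 6 changed sign from a value whose interval lay off 0; of 64 recomputed levels, 5 stayed within and 59 moved. The counting intervals are narrow at these depths, so a move is often small. The count of members at least 2-fold lower with EGFP in set 1 went from 3 to 5 without possible doublets, with the split on UMIs before thinning and in cells with *Epcam* above 0 and *Ptprc* 0 (a gate chosen after the data were seen), and to 1 at 4-fold. The ARQ count of set 1 went from 5 to 3 at 4-fold. The share of all genes called lower with EGFP in set 1 was 2.61% with a mean of at least 20 CPM and 13.4% with no filter. For ARQ it was 2.74% and 12.7% in set 1 and 9.43% and 27.8% in set 2. The 6 ratios that changed sign were *Msmb* by EGFP in set 1 (-0.075 without possible doublets), *Msmb* by ARQ in set 1 (-0.273 with thinning to 6000 UMIs and -0.008 with *Epcam* above 0 and *Ptprc* 0), *Sbp* by ARQ in set 1 (-0.103 with the same gate), *Msmb* by proximal markers in set 2 (-0.009 with every cell weighing the same) and *Sbpl* by proximal markers in set 2 (-0.248 with the gate). Ratios whose interval held 0 also took the other sign, with *Apof* by ARQ at 0.845 in set 2 (split on UMIs before thinning) and -0.054 in set 1 (the gate), and *Sbp* by proximal markers at 0.302 in set 2 (every cell weighing the same). The cause was not tested. *Pbsn* ranged from -2.18 to -1.16 by EGFP in set 1 and from -5.07 to -3.05 in set 2. No paired analysis was possible because no result comes from a test, with 1 library in a group.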

Other observations

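Basal-gate cells (1738 in set 1, 274 in set 2) held the 8 genes at 0.188% and 0.172% of their UMIs. They were above free RNA for 3 or more of the genes in 24 of 1722 thinned cells of set 1 (1.39%) and 2 of 266 of set 2 (0.752%). In fibroblast-gate cells of set 2, *Apof* stood at 37.3 CPM (25.7 to 52.4, 33 UMIs), against 1.49 CPM in leukocytes, and was above free RNA in 2 of 129 thinned cells.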
